A study of Mus musculus with 2 samples.

Results

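The 5 mouse microRNA (miRNA) genes described here, Mir335, Mir298, Mir296, Mir483 and Mir675, lie at imprinted loci other than the Dlk1-Dio3 region. They were chosen by gene symbol, from the annotation GENCODE M21, out of 2202 annotated miRNA genes, and each matched 1 gene. The tissue was the left cerebral cortex, taken at 2 months of age from males of the hybrid B6CASTF1/J, a cross of C57BL/6J with CAST/EiJ. RNA fragments shorter than 30 nucleotides were sequenced in 2 libraries, library 1 labelled male 3 and library 2 labelled male 4. The labels number them as biological replicates 1 and 2, yet both carry 1 shared donor identifier. Whether they came from separate animals thus cannot be settled here, and the spread between these libraries may be partly technical. The exact binomial and Fisher's p-values below set only counting error against a difference. Only the p-values of edgeR also allow for the spread between these libraries. The labels name no treatment and there was 1 group, so the comparisons below are between genes and between these 2 libraries, with library 1 over library 2 in every ratio between libraries.

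An imprinted gene is read mainly from the chromosome of 1 parent. The choice is usually, though not at every such gene, set by methylation marks laid down in the germ line. Mest, which hosts Mir335, the Nespas transcript beside Mir298 and Mir296, and Igf2, which hosts Mir483, are known as paternally expressed in most mouse tissues. H19, which hosts Mir675, is read from the maternal chromosome. In brain, Igf2 is known mainly from the choroid plexus and the meninges, and H19 is strong in the embryo and placenta and falls after birth. Gene counts do not separate parental alleles, so imprinting itself was not measured here.

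A miRNA recognises its targets mainly through its seed, bases 2 to 8 of the mature strand, so the sequences show which genes could act as a family. The mature arms below are those of RefSeq (GRCm38.p6, the assembly of mm10), 5′ to 3′, with the seed in capitals.
miR-335-5p: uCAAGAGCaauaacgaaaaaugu
miR-335-3p: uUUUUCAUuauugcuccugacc
miR-298-5p: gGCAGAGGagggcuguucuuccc
miR-298-3p: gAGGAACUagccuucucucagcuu
miR-296-5p: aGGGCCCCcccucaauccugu
miR-296-3p: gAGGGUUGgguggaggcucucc
miR-483-5p: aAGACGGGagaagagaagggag
miR-483-3p: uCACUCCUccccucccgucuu
miR-675-5p: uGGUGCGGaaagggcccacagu
miR-675-3p: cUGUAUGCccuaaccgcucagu

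All 5 genes matched RefSeq, with 10 mature arms and 10 different seeds. None of these seeds occurred in a mature miRNA of another gene in that table. A seed found in no other gene was common, at 68.0% of the 1738 mature miRNAs listed. The neighbours Mir298 and Mir296 thus shared no seed. No hairpin of the 5 shared a stretch of 20 bases with another annotated hairpin, whereas 49.2% of all annotated hairpins and 21.4% of those detected here did. Their reads were therefore not split with an annotated copy.

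Mir335 (ENSMUSG00000065501.1) lies at chr6:30741299-30741396 on the plus strand (mm10), in an intron of all 7 Mest transcripts that span it. Mir298 (ENSMUSG00000065410.1; chr2:174267504-174267585) and Mir296 (ENSMUSG00000065521.1; chr2:174267047-174267125) lie 378 bases apart on the minus strand. GENCODE M21 annotates no host transcript over either, and Nespas, on the same strand, ends 13.7 kb upstream of Mir298. Mir483 (ENSMUSG00000070140.1; chr7:142654924-142654996, minus strand) lies in an intron of 7 Igf2 transcripts and of 1 transcript of the overlapping gene model Gm49394. Mir675 (ENSMUSG00000076275.1; chr7:142577064-142577147, minus strand) lies in an exon of 3 H19 transcripts and in an intron of 1, and 77.8 kb separate it from Mir483.

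**Figure D1:**
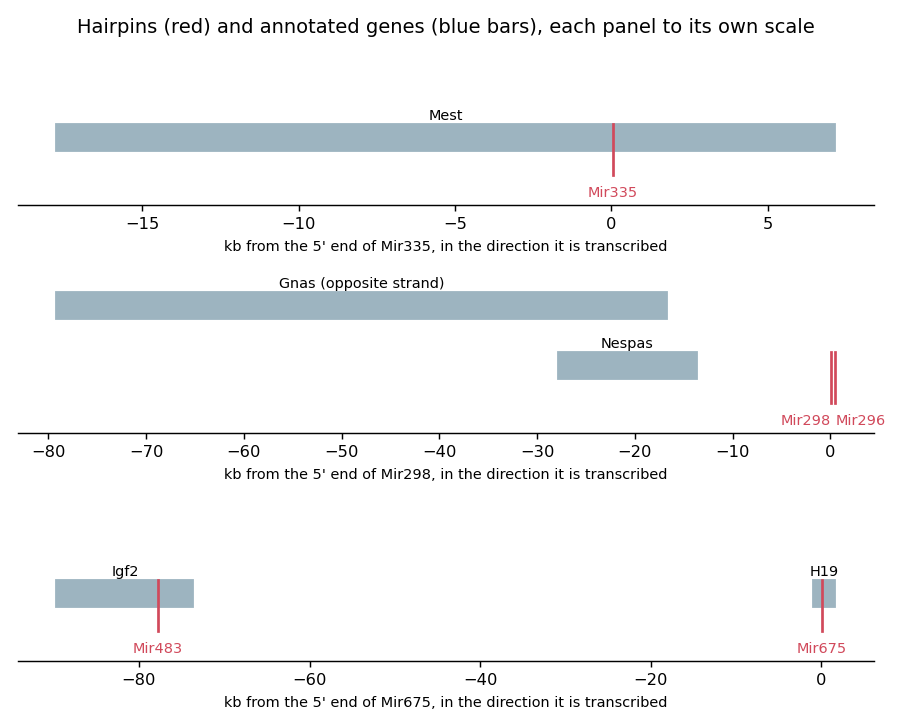
Positions of the hairpins (red) and of the annotated genes around them (blue bars), as distance in kb from the 5′ end of the hairpin named on each axis. Mir335 and Mir483 lie within Mest and Igf2, Mir675 lies within H19, and Mir298 and Mir296 lie 378 bases apart and beyond the end of Nespas.

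The hairpins differed in base composition and folding. GC content was 42.9% for Mir335, 53.7% for Mir298, 58.9% for Mir483, 63.1% for Mir675 and 63.3% for Mir296, against a median of 50.8% over all annotated hairpins. The folding energy predicted by RNAfold was -45.2 kcal/mol per 100 bases for Mir335, -46.3 for Mir483, -52.1 for Mir298, -54.7 for Mir296 and -66.7 for Mir675. All 5 were below the median of all hairpins (-36.9) and that of the detected genes (-43.5). Mir675 had the most stable predicted hairpin of the 5, and 1.27% of all annotated hairpins had a lower energy per base.

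Of the 5 genes, 4 were detected, meaning 10 or more reads in both libraries, against 18.4% of all annotated miRNA genes (406 of 2202). Levels are counts per 1000000 sense-strand miRNA reads (CPM). A read is about as long as a mature miRNA, so CPM was not divided by hairpin length. The 5 genes summed to 0.854% of these reads in library 1, with an exact 95% interval from 0.845 to 0.864%. In library 2 they summed to 0.756%, with an interval from 0.749 to 0.764%. Mir335 supplied 55.2% and Mir298 38.2% of the summed mean CPM of the 5 genes. Reads that map to several places, 41.7% of library 1 and 41.1% of library 2, count for no gene. Genes with copies elsewhere may thus be undercounted, so the shares, levels and ranks given here hold among counted reads only.

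Mir335, the intronic miRNA of Mest, was the most abundant, ranking 42nd of 2202 genes by mean level. In human breast cancer cells miR-335 is known to repress the transcription factor SOX4 and to limit metastasis. It had 16767 reads in library 1 and 20554 in library 2, or 4381 CPM (exact 95% interval 4315 to 4448) and 4514 CPM (4453 to 4576). Its mean was 4448 ± 94.1 CPM (SD, n = 2), so the libraries were close together.

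Mir298, known to repress Bace1, a protease that cuts the amyloid precursor protein, in mouse cells, ranked 53rd. It had 14368 reads in library 1 and 10942 in library 2, or 3754 CPM (3693 to 3816) and 2403 CPM (2358 to 2449). Library 1 was the higher for this gene, and the mean was 3079 ± 955 CPM (SD, n = 2).

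Mir296, known in human endothelial cells as a miRNA that promotes vessel growth, ranked 134th. It had 1209 reads in library 1 and 2500 in library 2, or 316 CPM (298 to 334) and 549 CPM (528 to 571). Here library 2 was the higher, the opposite of its neighbour Mir298, and the mean was 432.5 ± 165 CPM (SD, n = 2).

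Mir483, whose 3p arm is known to repress a pro-apoptotic gene in human tumour cells, ranked 204th, close to the median level of the detected genes (95.6 CPM). It had 356 reads in library 1 and 444 in library 2, or 93.0 CPM (83.6 to 103.2) and 97.5 CPM (88.7 to 107). Its mean was 95.3 ± 3.18 CPM (SD, n = 2), with little spread.

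Mir675, the exonic miRNA of H19 that is known to restrain growth of the mouse placenta, was almost without reads. It had 0 reads in library 1, which allows up to 0.784 CPM (3 counts), and 2 reads in library 2, or 0.439 CPM (0.0532 to 1.59). Its presence was thus not established at this depth. The H19 transcript itself was not measured.

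**Figure D2:**
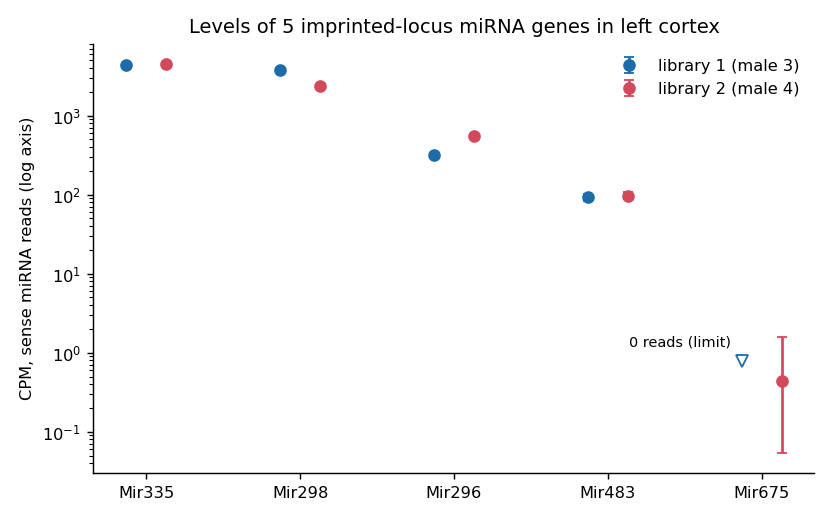
CPM of the 5 genes (log axis) in library 1 (blue) and library 2 (red), with exact 95% intervals that cover counting error only and are mostly smaller than the points. The open triangle is the limit of 3 counts (0.784 CPM) set for the 0 reads of Mir675 in library 1, not the end of an exact interval. The levels of neighbouring genes in the order do not overlap.

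The order Mir335, Mir298, Mir296, Mir483, Mir675 held in each library, and the ranges of neighbours in this order did not overlap, although each range rests on 2 values. The closest step was Mir335 over Mir298, at 1.17-fold in library 1 (exact 95% interval 1.14 to 1.19). In library 2 the step was 1.88-fold (1.835 to 1.923). Mir296 was 3.40-fold above Mir483 in library 1 and 5.63-fold in library 2. In library 1, where Mir675 had 0 reads, the exact 95% interval of the ratio of Mir483 over Mir675 began at 96.0, with no upper end. In library 2 that ratio was 222, with an exact interval from 61.1 to 1839.

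Mir298 and Mir296 differed in opposite directions, so their ratio had to differ more between the libraries than the level of either gene. Mir298 had 11.9 reads for each read of Mir296 in library 1 (exact 95% interval 11.2 to 12.6), against 4.38 in library 2 (4.19 to 4.57). The ratio was therefore 2.71-fold higher in library 1 (log2 1.44, 95% Wald interval of the fold 2.52 to 2.92). By a two-sided Fisher's exact test on the reads this difference had an adjusted p of 2.24e-168 over the 2 pairs tested. The other pair, Mir483 and Mir675, gave an exact adjusted p of 0.506, and the 2 reads of Mir675 could show little. Fisher's exact test sets only counting error against the difference and does not extend to other animals. For Mir298 and Mir296 it draws on the same reads as the single-gene tests below and is no separate evidence.

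Across the single genes, the split of each gene's reads between the libraries was tested against that of the totals with an exact two-sided binomial test. Benjamini-Hochberg adjustment ran over all 508 genes with 10 or more reads in total. The test called 3 of the 4 members tested, 1 higher and 2 lower in library 1, against 48.4% of all genes tested (246 of 508). Among the 203 genes with at least as many reads as Mir483 (800 in total), 84.7% were called, so the members' share was near that of other well-covered genes. Mir675 had too few reads to be tested.

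Mir298 was 1.56-fold higher in library 1 (log2 ratio 0.64, exact 95% interval 0.61 to 0.68, adjusted p = 1.06e-272). Mir296 was lower in library 1, at a log2 ratio of -0.80 (-0.90 to -0.70, adjusted p = 4.43e-58). Mir335 was lower in library 1 by a log2 ratio of -0.04 (-0.07 to -0.01, adjusted p = 0.00938), and this call was lost with TMM-scaled totals (exact binomial, adjusted p = 0.1305). Mir483 did not pass, at a log2 ratio of -0.07 (-0.27 to 0.14, adjusted p = 0.628).

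In size, the differences of Mir298 and Mir296 were not extreme. The median absolute log2 ratio was 0.35 over the 406 detected genes. Of those genes, 69 had a larger absolute ratio than Mir296 and 100 a larger one than Mir298, whereas 364 exceeded Mir483 and 378 exceeded Mir335. When edgeR's exact test also allowed for the spread between the libraries (coefficient of variation 33.3%), it called none of the 4 members, against 0.787% of genes tested (4 of 508). At an unadjusted p under 0.05 it called 0 of the 4 members and 25 of the 508 genes. The members' unadjusted p by edgeR was 0.261 for Mir296, 0.340 for Mir298, 0.946 for Mir483 and 0.969 for Mir335, each with an adjusted p of 1.

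**Figure D3:**
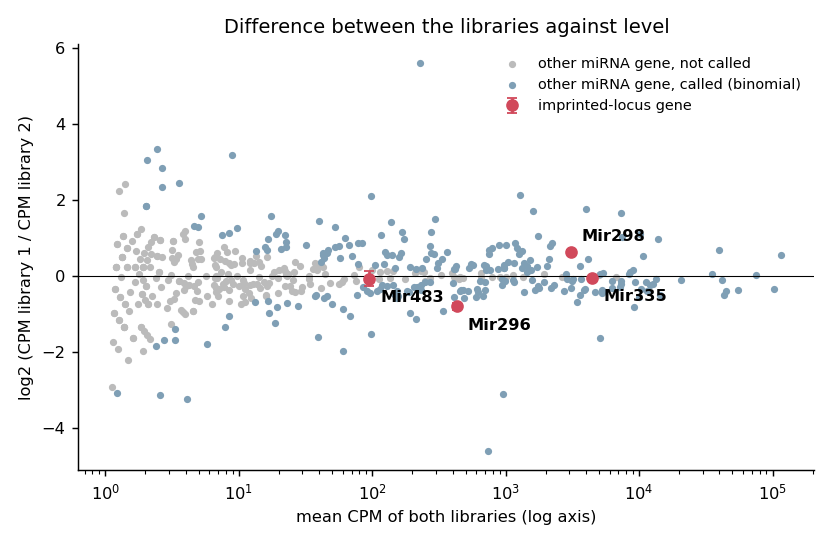
Log2 ratio of CPM in library 1 over library 2 against mean CPM (log axis) for the tested miRNA genes with reads in both libraries, blue where the exact binomial test called them and grey where it did not. The members are red with exact 95% intervals: Mir298 lies at 0.64 and Mir296 at -0.80, while Mir335 and Mir483 lie at -0.04 and -0.07, all within the cloud of other genes.

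Hairpins this close may be cut from 1 primary transcript, so the Gnas-region pair was set beside all other close pairs. This comparison was chosen after the values of Mir298 and Mir296 were seen and is a description without a test. Among detected genes, 64 pairs of neighbours lay on the same strand within 1 kb of each other. The log2 library ratios of Mir298 and Mir296 differed by 1.44, against a median difference of 0.54 over the 64 pairs and a range from 0.00343 to 2.64. Only 4 pairs differed by more, namely Mir144 with Mir451a (2.64), Mir487b with Mir539 (2.50), Mir23a with Mir27a (1.97) and Mir99b with Mirlet7e (1.70).

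The signs of Mir298 and Mir296 were opposite, as they were in 33 of the 64 pairs. Their difference in level was near the median of these pairs. Mir298 was 7.12-fold above Mir296 in mean CPM, against a median of 6.10-fold, and 28 of the 64 pairs were further apart. That median is uncertain, since reads that map to several places count for no gene. Of all detected hairpins, 21.4% share a stretch of 20 bases with another, whereas Mir298 and Mir296 do not. Whether such copies changed these folds was not tested.

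**Figure D4:**
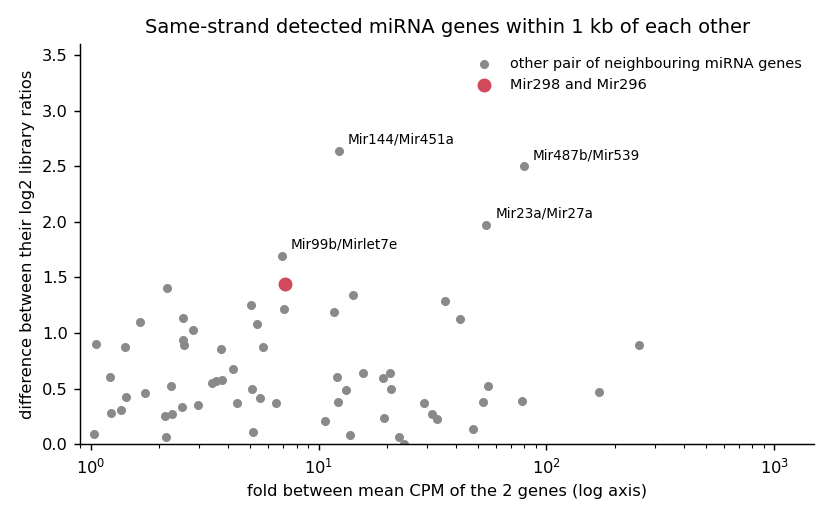
Each point is a pair of neighbouring detected miRNA genes on 1 strand within 1 kb, with the fold between their mean CPM (log axis) against the absolute difference between their log2 library ratios. The pair of Mir298 and Mir296 (red) lies at 7.12-fold and 1.44, and the 4 labelled pairs have larger differences between their log2 ratios.

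The genes nearest to each member in level over the 2 libraries were found by distance on the log2(CPM + 1) scale, which compares levels only. Mir335 lay nearest to Mir30a (5009 CPM in library 1 and 4939.5 CPM in library 2, distance 0.233), then to Mir361 and Mir92b. Mir298 lay nearest to Mir676 (2890 and 2772 CPM, distance 0.430), then to Mir342 and Mirlet7f-2. Mir296 lay nearest to Mir30c-2 (335 and 487 CPM, distance 0.192), then to Mirlet7c-1 and Mir490. Mir483 lay nearest to Mir210 (91.7 and 97.7 CPM, distance 0.0204), then to Mir29b-2 and Mir1298. Mir298 stood furthest from its nearest gene.

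Other imprinted miRNA genes formed 2 groups for comparison, taken from GENCODE M21 by position. In the Dlk1-Dio3 region, whose miRNAs are read from the maternal chromosome, 51 of 59 genes (86.4%) were detected, with a median of 273 CPM over all 59. It held 11.6% of the sense-strand miRNA reads in library 1 and 13.3% in library 2. Its detected genes ran from Mir758 at 3.82 ± 1.99 CPM to Mir127 at 43068 ± 10492 CPM (SD, n = 2). Within Sfmbt2, an imprinted gene with a large repeat-derived array of miRNAs, 8 of 119 genes (6.72%) were detected, led by Mir467d at 699 ± 129 CPM and ending at Mir669e at 7.51 ± 3.79 CPM. Of its 119 hairpins, 116 share a stretch of 20 bases with another, and reads that map to several places count for no gene, so low values there are uncertain. That array held 0.149% of the reads in library 1 and 0.154% in library 2.

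Mir335 lay above all but 7 of the 51 detected Dlk1-Dio3 genes and above all 8 detected Sfmbt2 genes by mean CPM. Mir298 was exceeded by 9 of the 51, Mir296 by 26 and Mir483 by 40. The median over the 5 members was 432.5 CPM, and the median over all 2202 genes was 0, since 1444 had no read. The binomial test called 38 of 51 tested Dlk1-Dio3 genes (22 higher and 16 lower in library 1) and 5 of 8 tested Sfmbt2 genes (4 higher and 1 lower). The median absolute log2 ratio was 0.36 over the detected members, 0.35 over Dlk1-Dio3 and 0.34 over Sfmbt2.

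**Figure D5:**
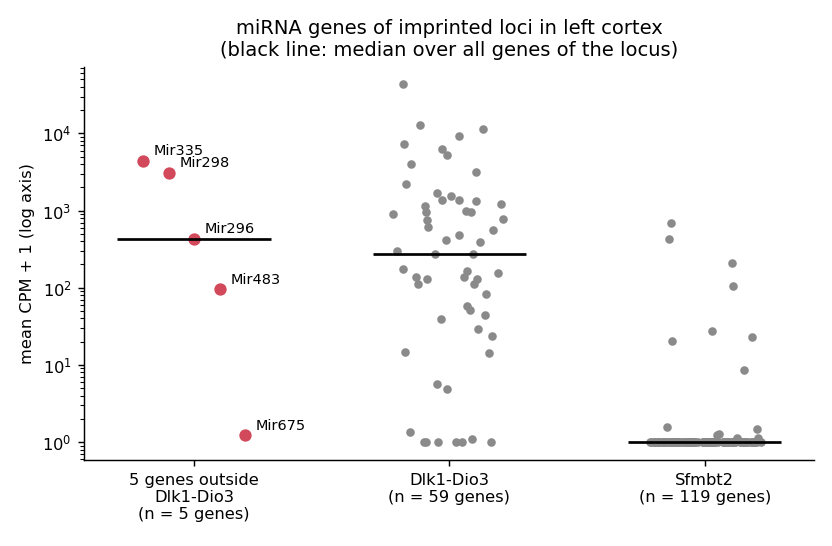
Mean CPM + 1 of the 2 libraries (log axis) for the 5 members (red), the 59 Dlk1-Dio3 genes and the 119 Sfmbt2 genes, 1 point a gene, with the median over all genes of each locus as a black line. Mir335 and Mir298 lie in the upper part of the Dlk1-Dio3 range and Mir675 lies at its floor.

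Library 1 held 11372894 reads and library 2 held 12980686, of which 3827158 and 4553291 fell on the sense strand of a miRNA gene. Intervals and limits cover only the counting error of reads. No molecular identifiers were used, so reads are not counts of separate molecules. The tissue label was checked on 13 listed neuronal miRNA genes, of which 10 were detected, with a summed level of 78411 CPM in library 1 and 53206 CPM in library 2. The 3 others, Mir9-2, Mir124a-2 and Mir124a-3, are copies whose mature sequence also lies at other loci. The same holds for Mir9-1, Mir9-3 and Mir124a-1, which were detected, Mir124a-1 with only 10 reads in library 1 and 18 in library 2. Whether the copies account for the low counts was not tested. Of the 10, 6 were higher and 4 lower in library 1, and Mir132 alone, at 48515 CPM in library 1 and 30152 CPM in library 2, made up most of the sum. The astrocyte list (4 of 4 detected, all higher in library 1) summed to 14342 CPM in library 1 and 9860 CPM in library 2. The oligodendrocyte list (3 of 3 detected, 2 higher and 1 lower) summed to 4981 CPM in library 1 and 3468 CPM in library 2. The microglia and leukocyte list (3 of 4 detected, all higher) summed to 2128 CPM in library 1 and 1705 CPM in library 2. Glial and leukocyte sums thus stood higher in library 1, as did the neuronal sum. The red blood cell list (3 of 3 detected, 1 higher and 2 lower) summed to 134 CPM in library 1 and 1549 CPM in library 2. The vessel sum covers Mir126a and Mir143 only, both lower in library 1, at 14101 CPM in library 1 and 18353 CPM in library 2. The remaining vessel gene was listed as Mir145, while the annotation has Mir145a, which stood at 254 CPM in library 1 and 221 CPM in library 2. Genes listed for ciliated cells and choroid plexus (4 of 5 detected, 2 higher and 2 lower) summed to 721 CPM in library 1 and 724 CPM in library 2. None of the matched genes in these 7 lists was at 0 reads in both libraries. Lists for other organs were set as well. Liver (1 of 1 detected) summed to 72.4 CPM in library 1 and 78.6 CPM in library 2, and islet (1 of 1) to 132 and 174 CPM. Muscle (1 of 3 detected) summed to 25.35 CPM in library 1 and 33.6 CPM in library 2, and 2 of its genes had 0 reads in both. The part of these markers in the library differences of Mir335, Mir298, Mir296 and Mir483 was not tested. Fewer cells of a type and less RNA per cell cannot be told apart in such tissue RNA.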

How the data were processed

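MicroRNA-seq counts were analysed for 2 libraries of 1 group. The authors deposited whole-number read counts per miRNA gene, not normalized, in 1 table per library with columns that ignore strand, read the sense strand and read the antisense strand. Per the labels the build is mm10, and per the deposited descriptions the annotation is GENCODE M21. How reads were trimmed and aligned is not given in the sources. Tally rows (unmapped 19.6% and 18.9% of reads in libraries 1 and 2) were kept out of totals and tests. The layout gives reads mapped to several places to no gene, and mm10 may lose reads of the CAST/EiJ allele.

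Sense counts were scaled to CPM. The two-sided exact binomial test and Fisher's exact test used scipy 1.17.1 (Python 3.11.15), with Benjamini-Hochberg adjustment at 0.05 over all genes tested for the first and over the 2 pairs for the second. The spread between libraries came from edgeR 4.0.16 (TMM, intercept-only common dispersion, R 4.3.3), estimated from the same 2 libraries, so real differences widen it and its p-values are no replicated test. DESeq2 1.42.0 gave size factors for an alternative. Hairpins were folded with RNAfold 2.7.2. The tests were tried on simulated counts with known answers. Genes named are the 5 members, the 3 nearest to each detected member in level, and the highest and lowest detected gene of each imprinted locus, plus the pairs chosen later. The Dlk1-Dio3 genes are those on the plus strand of chromosome 12 from Meg3 to 250 kb beyond it. Members and lists were chosen with earlier results of these data known. Other read minimums, totals, scalings, the unstranded column, hairpin length and leaving out each library were tried as alternatives.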

Additional observations from a re-analysis of the deposited data

Results flagged for a closer look

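Read tallies that no gene count uses were well above what a count of 0 allows. Reads that mapped to several places were 41.7% of library 1 and 41.1% of library 2. Reads placed uniquely but outside miRNA genes were 5.03% of library 1 and 4.94% of library 2. The antisense column held 0 reads at all 5 imprinted-locus genes in both libraries.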

How the results depend on the processing

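The order of the 5 genes and the 4 detected members were kept under every alternative run, as were the directions of the 4 library ratios. Of the calls on these genes, only that of Mir335 was lost, with TMM-scaled totals (log2 ratio -0.027, exact binomial adjusted p = 0.1305). Mir298 and Mir296 passed under all 6 alternatives, at log2 ratios from 0.58 to 0.66 and from -0.86 to -0.78. Other totals set the scale of the levels by construction. Per 1000000 of all reads, Mir335 stood at 1529, Mir298 at 1053, Mir296 at 149 and Mir483 at 32.75. Without the 10 most abundant genes in the total they stood at 10442.5, 7217, 1017 and 224 CPM. With the column that ignores strand Mir335 stood at 4798 and Mir483 at 103 CPM, and per 100 hairpin bases Mir483 stood at 130.5. Leaving out a library gave 4381 to 4514 CPM for Mir335, 2403 to 3754 for Mir298, 316 to 549 for Mir296, 93.0 to 97.5 for Mir483 and 0 to 0.439 for Mir675. No library ratio can be had from 1 library. The binomial test called 222 to 252 genes and edgeR 3 or 4 under the alternatives, of which the edgeR count on the column that ignores strand was chosen after seeing the data. A DESeq2 Wald test was not run, since it needs replicates. No paired analysis was possible because there is 1 group. Depth limited Mir675 most, and of the 4 members tested, Mir483 had the widest interval.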
